A study of Homo sapiens with 4 samples.

Results

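Peaks of open chromatin around 10 genes for endothelial receptors and surface proteins were examined in cardiac progenitor cells. The genes were the VEGF receptors KDR, FLT1 and FLT4, the TIE receptors TEK and TIE1, the junction genes CDH5 and PECAM1, and ENG, CD34 and NOS3. A peak was given to a gene when the authors had labelled it with that gene's symbol, or when the gene was the protein-coding gene whose RefSeq body lay nearest within 100 kb. This gave 55 of the 60875 deposited peaks, of which 4 carried a member's symbol. The peaks comprised 27 of the VEGF receptors, 6 of the TIE receptors, 11 of the junction genes and 11 of ENG, CD34 and NOS3.

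The cells were of WTC11, a human line of induced pluripotent stem cells with wild-type genotype, and were taken on day 6 of cardiac progenitor differentiation. ATAC-seq, in which the transposase Tn5 cuts open chromatin, was done on 2 libraries of differentiations with a high final purity of cardiomyocytes and 2 libraries of differentiations with a low one. The study asked which features of the progenitors go with the later purity. All 4 libraries came from the same line, and whether the replicates were separate differentiations is not stated beyond their label as biological replicates, and p-values then describe scatter among these 4 libraries alone.

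The values are the authors' DESeq2 comparison, with no value per library, so the depth of each library is unknown. The error given beside each log2 fold change is its deposited standard error (SE). Peaks marked Up by the authors have negative log2 fold changes and those marked Down have positive ones. The sources used here do not say which purity group was divided by which, so a change is given as Up side (negative) or Down side (positive) and assigned to neither group. A peak is called changed when its adjusted p by the authors' deposited table is under 0.05. Of genes that mark cardiac progenitors and cardiomyocytes, 11 of 11 had a peak, and a peak covered 7 of the 8 promoters with a RefSeq entry. All 14 endothelial markers, which include the 10 genes examined here, had a peak too, but a peak covered only 3 of their 10 listed promoters. Having a peak was common, since 16879 protein-coding genes were the nearest to at least 1 peak within 100 kb. Promoters were covered in 4 of 4 smooth muscle and fibroblast markers, 3 of 4 endoderm markers, 1 of 8 haematopoietic and 1 of 4 pluripotency markers, against 61.6% of all protein-coding promoters.

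Endothelial cells line blood and lymph vessels, and in the embryo they arise from mesoderm close to the progenitors of the heart. KDR is itself expressed by early cardiovascular mesoderm and is widely used to sort such cells during cardiac differentiation. VEGF receptors drive the formation and sprouting of endothelium, TIE receptors stabilise vessels in response to angiopoietins, and the junction proteins hold the cells of the vessel wall together. In a bulk assay, fewer cells of a type and less open chromatin per cell cannot be told apart.

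A changed peak was found at 5 of the 10 genes: TEK, NOS3 and KDR on the Down side, and FLT1 and CDH5 on the Up side. The TEK peak covered the start of the gene and the NOS3 peak lay just outside its gene. The KDR, FLT1 and CDH5 peaks lay 39 to 89 kb from their genes. In all, 5 of 55 peaks (9.09%) had changed, 2 of them Up side and 3 Down side, against 6.0% of all peaks. The share is near that background and is no result about the set. The authors' own marking, which takes peaks past 1 log2 unit in size and below 0.05 in unadjusted p, took in 4 of the peaks as Up and 3 as Down, against 4.86% and 4.98% of all peaks. At an unadjusted p under 0.05, which no call here rests on, 11 of the 55 would pass, against 16.4% of all peaks. The median log2 fold change of the 55 peaks was 0.06, against 0.00 over all peaks, with a range from -1.82 to 1.27.

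**Figure D1:**
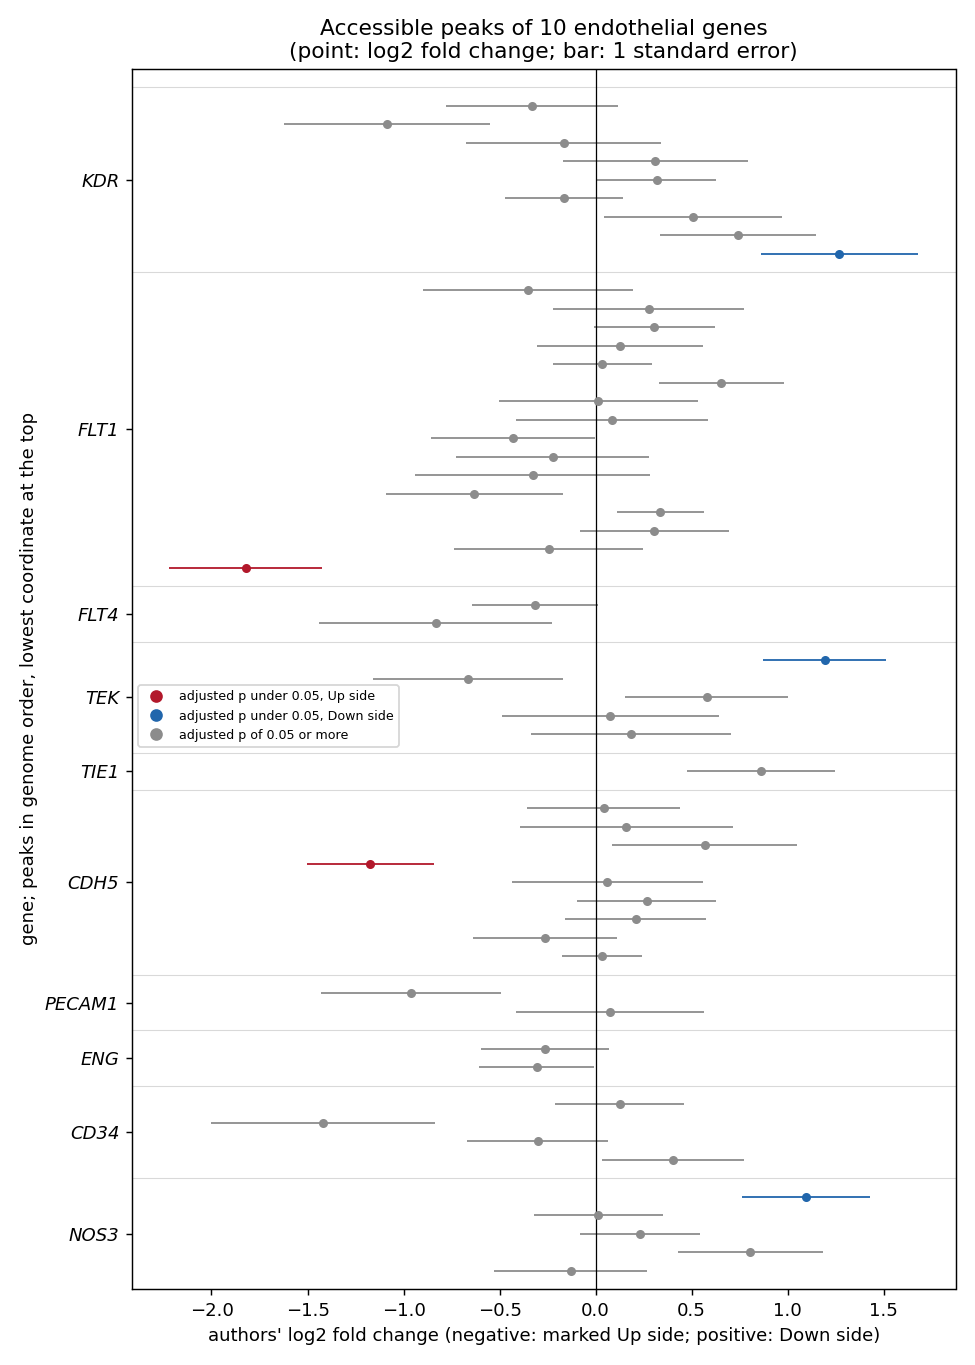
Log2 fold change of each of the 55 peaks by the authors' deposited table (horizontal axis), grouped by gene (vertical axis) in genome order; points are fold changes, bars 1 SE, red and blue points changed on the Up and Down sides, and grey points did not pass. Each of the 5 coloured points belongs to another gene, and the changed FLT1 peak at -1.82 is the farthest from 0.

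RefSeq (GRCh38.p14) lists a promoter for 7 of the 10 genes, and a deposited peak covered that of TEK, KDR and FLT1. The 250 bases before the start of these 3 genes are shown because the TEK peak changed and the KDR and FLT1 peaks did not pass. Each is written 5′ to 3′ on the strand of the gene. Capitals mark matches on either strand to the searched motifs found here, namely the E-box CANNTG, the KLF-type motif GGGTGTGG and the SP1-type motif GGGCGG. The TEK stretch is chr9:27108975-27109224 on the plus strand, the KDR stretch chr4:55125596-55125845 on the minus strand and the FLT1 stretch chr13:28495129-28495378 on the minus strand.
TEK: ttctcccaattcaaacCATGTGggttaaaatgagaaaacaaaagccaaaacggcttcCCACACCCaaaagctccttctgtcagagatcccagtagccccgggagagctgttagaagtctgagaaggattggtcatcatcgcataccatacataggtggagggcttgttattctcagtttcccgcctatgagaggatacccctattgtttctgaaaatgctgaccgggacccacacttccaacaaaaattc
KDR: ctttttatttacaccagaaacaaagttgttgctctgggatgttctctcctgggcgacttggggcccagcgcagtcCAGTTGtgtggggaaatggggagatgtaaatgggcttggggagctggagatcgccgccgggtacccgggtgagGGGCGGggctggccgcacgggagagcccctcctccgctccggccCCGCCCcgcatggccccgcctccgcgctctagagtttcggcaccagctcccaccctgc
FLT1: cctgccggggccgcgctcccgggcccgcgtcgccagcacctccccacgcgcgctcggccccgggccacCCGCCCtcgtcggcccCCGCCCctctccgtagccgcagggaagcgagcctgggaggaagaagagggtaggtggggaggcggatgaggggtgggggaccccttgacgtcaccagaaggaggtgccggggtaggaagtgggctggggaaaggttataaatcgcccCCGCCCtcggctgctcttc

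The TEK stretch was 46.4% G and C, below the 62.4% median of protein-coding promoters, whereas KDR had 65.2% and FLT1 73.2%. GGGCGG occurred in 4 of the 7 genes, KDR (2 matches), FLT1 (3), CD34 (2) and NOS3 (1), against 56.0% of 15842 protein-coding promoters. The TEK stretch had no match. GGGTGTGG occurred in TEK, 193 bases before the start, and in TIE1, against 3.08% of all promoters. The E-box occurred in KDR, TEK, TIE1, CD34 and NOS3, against 57.8% of all promoters. The extended ETS motifs CCGGAAGT and ACAGGAAGT, the FOX and ETS composite AACAGGAA, the GATA motif AGATAA, the SOX motif AACAATG, the AP-1 motif TGANTCA and the MEF2 motif TATTTATAG had no match in these windows of the 7 genes. The E-box form CAGCTG, a subset of CANNTG, occurred in TIE1 alone, against 13.4% of all promoters. These are matches of letters and not binding sites.

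KDR encodes the main signalling receptor for VEGF-A. The peak over its start (chromosome 4, 55125218 to 55125799) had a mean normalized count of 85.0, the highest of the gene's 9 peaks. Its log2 fold change was 0.32 ± 0.31 (SE, adjusted p = 0.733) by the authors' deposited table, with a 95% interval of -0.29 to 0.92. The promoter peak of KDR therefore did not pass, and its interval leaves room for a difference in either direction.

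The changed KDR peak (chromosome 4, 55214226 to 55214612) had its centre 88824 bp before the start. By the authors' deposited table it stood at 1.27 ± 0.41 (SE, adjusted p = 0.0365), a 2.41-fold difference with a mean count of 43.1. This call was narrow and ended once fold changes were recentred by mean count (1.21, adjusted p = 0.0502). The next protein-coding gene was SRD5A3, 131630 bp away. The peaks 56130 and 58878 bp before the start also had positive values by the authors' deposited table, 0.51 ± 0.46 and 0.74 ± 0.41 (SE), and did not pass. A peak 44183 bp before the start, with a mean count of 82.0, stood at -0.17 ± 0.31 (SE) by the authors' deposited table.

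On the other side of KDR, 1 peak beyond the end of the gene was marked Up by the authors without passing the adjusted threshold. This peak, 41620 bp from the gene body with a mean count of 24.7, stood at -1.09 ± 0.54 (SE, adjusted p = 0.280) by the authors' deposited table. Its neighbour 45349 bp from the body stood at -0.33 ± 0.45 (SE) by the authors' deposited table. The largest values on the 2 flanks of KDR therefore had opposite signs, and the difference between the flanks was not tested. The 100 kb limit fell between peaks that did not pass: the farthest included was a CDH5 peak at 95845 bp (0.04 ± 0.40, SE), and the nearest left out was a KDR peak at 101380 bp (0.24 ± 0.55, SE), both values from the authors' deposited table.

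FLT1 encodes a receptor that binds VEGF-A tightly but signals weakly, and its soluble form acts as a trap for the ligand. With 16 peaks FLT1 had more than any other member. Of these, 13 lay in its gene body of 195 kb. None of the 13 passed the authors' DESeq2 adjusted threshold, and 1 had an unadjusted p under 0.05. The 15 FLT1 peaks that did not pass had log2 fold changes from -0.63 to 0.66. The peak over the start (chromosome 13, 28494425 to 28495772) was 1347 bp wide, the widest of the 55. Its mean count was 187.5, and it stood at 0.34 ± 0.23 (SE, adjusted p = 0.521) by the authors' deposited table. The highest mean count of the gene, 206.0, was that of an intragenic peak 144851 bp from the start, at 0.03 ± 0.26 (SE) by the authors' deposited table.

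The changed FLT1 peak (chromosome 13, 28545649 to 28546130) had its centre 50761 bp before the start and a mean count of 54.1. It stood at -1.82 ± 0.40 (SE, adjusted p = 0.000409) by the authors' deposited table, a 3.54-fold difference on the Up side and the largest of the 55 peaks. POMP, the next protein-coding gene, lay 113000 bp away. The peaks on the gene's side of it, 37809 and 8218 bp before the start, stood at -0.24 ± 0.49 and 0.31 ± 0.39 (SE) by the authors' deposited table and did not pass. At FLT1 the call thus rested on 1 distal peak, while the promoter and the gene body held no changed peak.

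FLT4 encodes the receptor for VEGF-C and VEGF-D, best known for the growth of lymphatic vessels. It had 2 peaks, and both had negative values that did not pass. The peak in the gene body (chromosome 5, 180618827 to 180619426) had a mean count of 78.3 and stood at -0.32 ± 0.33 (SE, adjusted p = 0.757) by the authors' deposited table. The other, 23032 bp outside the body with a mean count of only 18.5, stood at -0.83 ± 0.61 (SE, adjusted p = 0.576) by the authors' deposited table. Low counts leaned negative in general: among all peaks with mean counts of 9.27 to 19.4, the median log2 fold change was -0.57. Recentred by mean count, the FLT4 peak outside the body stood at -0.42. Over the 3 VEGF receptors, 1 of 27 peaks had changed on each side, against background shares of 2.36% (Up) and 3.64% (Down) over all peaks.

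**Figure D2:**
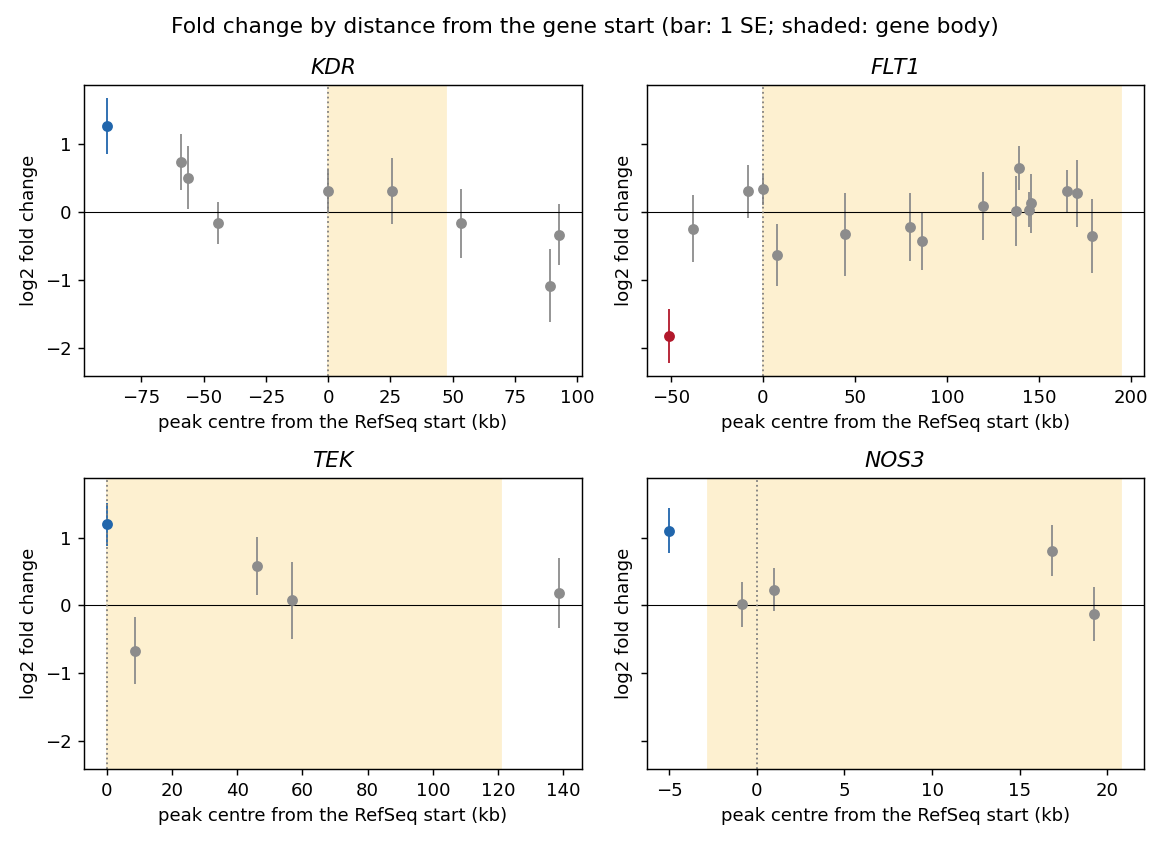
Log2 fold change by the authors' deposited table (vertical axis, bar 1 SE) by the distance of the peak centre from the RefSeq start along the strand of the gene (horizontal axis, kb; negative values lie before the start), for KDR, FLT1, TEK and NOS3, with the gene body shaded and changed peaks in red (Up side) or blue (Down side). The changed peak lies at the start in TEK, 5004 bp before it in NOS3, and 88824 and 50761 bp before it in KDR and FLT1.

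TEK encodes TIE2, the receptor for angiopoietins. The peak over its start (chromosome 9, 27108951 to 27109527, centred 14 bp after the start) had a mean count of 75.7, the highest of the gene's 5 peaks. It stood at 1.19 ± 0.32 (SE, adjusted p = 0.00692) by the authors' deposited table, a 2.28-fold difference with a 95% interval of 0.57 to 1.82. It covers the TEK stretch shown above. Of the 8877 peaks that overlapped a protein-coding promoter, 16 (0.18%) had changed on the Down side and 45 (0.507%) on the Up side. Changed promoter peaks were thus scarce in the whole table, and the TEK peak was 1 of those 16.

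The 4 other TEK peaks did not pass. By the authors' deposited table the peak 8661 bp after the start stood at -0.66 ± 0.50 (SE) and the one 45955 bp after it at 0.58 ± 0.42 (SE). The remaining peaks, in the gene body and 17602 bp beyond it, stood at 0.08 ± 0.57 and 0.18 ± 0.52 (SE) by the authors' deposited table. Their mean counts, 20.6 and 26.0, were low, and their SEs were accordingly large. The next protein-coding gene, IFT74, lay 42817 bp from the peak over the TEK start.

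TIE1 encodes the second TIE receptor, which binds no angiopoietin by itself and modulates TEK. It had 1 peak, 7132 bp from the gene body. That peak (chromosome 1, 43330240 to 43330631) had a mean count of 49.7 and stood at 0.86 ± 0.39 (SE, adjusted p = 0.204) by the authors' deposited table. No deposited peak covered the promoter of TIE1. A peak covered 61.6% of all 15842 protein-coding promoters. The TIE receptors together had 1 changed peak of 6, that of TEK on the Down side, against 3.64% of all peaks.

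CDH5 encodes VE-cadherin, the adhesion protein of endothelial adherens junctions. Its changed peak (chromosome 16, 66326959 to 66327605) lay 39086 bp outside the gene body and had a mean count of 74.8. On the Up side it stood at -1.17 ± 0.33 (SE, adjusted p = 0.0125) by the authors' deposited table, a 2.25-fold difference with a 95% interval of -1.82 to -0.52. The next gene, BEAN1, was 99690 bp away. The 8 other CDH5 peaks ran from -0.26 to 0.57, 7 of them positive, and did not pass. Peaks on either side of the changed one, 24039 and 51128 bp from the body, stood at 0.06 ± 0.50 and 0.57 ± 0.48 (SE) by the authors' deposited table.

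Inside CDH5 a pair of peaks stood at 0.27 ± 0.36 and 0.21 ± 0.37 (SE) by the authors' deposited table, with mean counts of 54.6 and 55.4. The highest mean count of all 55 peaks, 267.2, belonged to a peak 3700 bp from the CDH5 body that the authors labelled LINC00920, a long noncoding RNA gene. With the smallest SE of the set, it stood at 0.03 ± 0.21 (adjusted p = 0.976) by the authors' deposited table. Its 95% interval of -0.37 to 0.44 was the narrowest of the 55.

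PECAM1 encodes CD31, an adhesion protein of endothelial cell borders, platelets and white blood cells. It had 2 peaks of low mean count, 32.6 and 29.5. The peak in the gene body (chromosome 17, 64344335 to 64344746) stood at -0.96 ± 0.47 (SE, adjusted p = 0.266) by the authors' deposited table, and the other at 0.08 ± 0.49 (SE). The junction genes together had 1 changed peak of 11, on the Up side, against 2.36% of all peaks.

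ENG encodes endoglin, a co-receptor for ligands of the BMP and TGF-beta family. Its 2 peaks lay in the gene body and had much the same value. By the authors' deposited table they stood at -0.26 ± 0.33 and -0.31 ± 0.30 (SE, adjusted p = 0.822 and 0.734), with mean counts of 70.7 and 88.2. The 95% interval of the second ran from -0.89 to 0.28, and it did not pass.

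CD34 encodes a sialomucin of endothelial and blood progenitor cells. None of its 4 peaks passed by the authors' DESeq2 adjusted p, and 1 had an unadjusted p under 0.05. The lowest value was that of a peak 7091 bp before the start (chromosome 1, 207918045 to 207918387), at -1.42 ± 0.58 (SE, adjusted p = 0.144) by the authors' deposited table. That peak is marked Up there although it misses the adjusted threshold, and its mean count was 22.3. Among all peaks with mean counts of 19.4 to 22.4, the median log2 fold change was -0.22. Recentred by mean count, the CD34 peak stood at -1.27. The peak with the highest mean count of the gene, 77.3, lay in the gene body at 0.13 ± 0.33 (SE) by the authors' deposited table. The others, 14196 and 52697 bp before the start, stood at -0.30 ± 0.37 and 0.40 ± 0.37 (SE) by the authors' deposited table. No deposited peak covered the promoter windows of CD34, ENG or NOS3.

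NOS3 encodes endothelial nitric oxide synthase, the enzyme that makes the vessel-relaxing gas nitric oxide. The peak labelled with its symbol (chromosome 7, 150988516 to 150989040) lay 1977 bp outside the gene body and 5004 bp before the listed start. It stood at 1.10 ± 0.33 (SE, adjusted p = 0.0221) by the authors' deposited table, a 2.14-fold difference on the Down side with a mean count of 68.9. The channel gene KCNH2 lay 10195 bp away. Closer to the start of NOS3, peaks centred 841 bp before and 979 bp after it stood at 0.01 ± 0.34 and 0.23 ± 0.31 (SE) by the authors' deposited table, with mean counts of 64.8 and 76.5. Farther in, the peak 16856 bp after the start stood at 0.81 ± 0.38 (SE, adjusted p = 0.240) and the last, which also overlaps ATG9B, at -0.13 ± 0.40 (SE) by the authors' deposited table. The change at NOS3 was thus seen in the labelled upstream peak, and the peaks flanking the start did not pass.

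**Figure D3:**
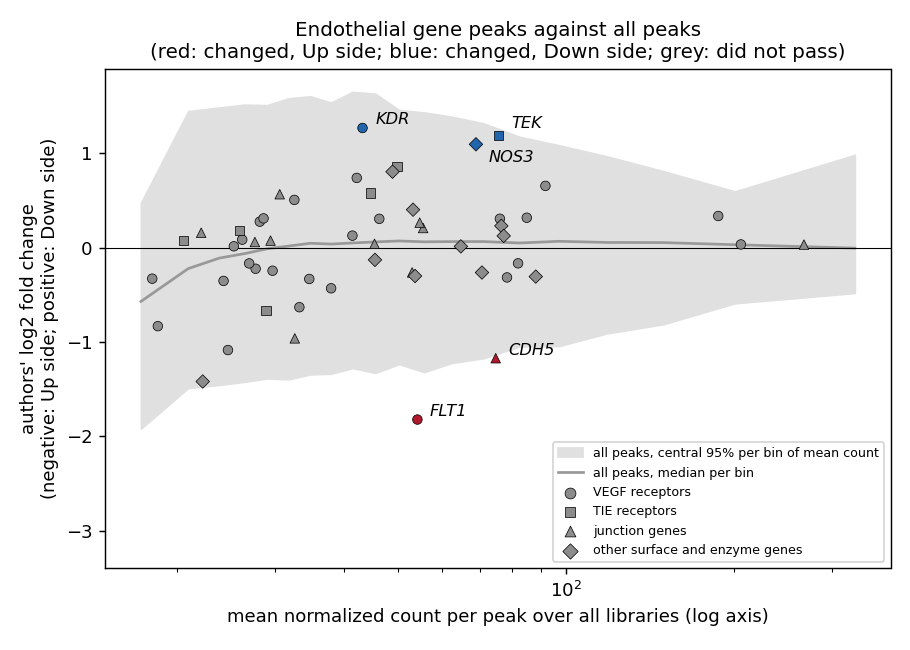
Log2 fold change (vertical axis) by mean normalized count (horizontal log axis) by the authors' deposited table for the 55 peaks, with the shape giving the gene group; the grey band holds the central 95% of all 60875 peaks in each of 20 bins of mean count. The changed FLT1 peak lies clearly below the band and the changed CDH5 peak at its lower edge, while the TEK, NOS3 and KDR peaks lie inside it.

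The 5 changed peaks had mean counts from 43.1 (KDR) to 75.7 (TEK). Mean counts of the 55 peaks ran from 18.1 to 267.2 with a median of 44.6, close to the 47.8 of all peaks, and their median SE was 0.41, against 0.39. Their median width was 351 bp, against 395 bp. By position, 1 of the 30 peaks in a gene body (3.33%) and 4 of the 25 outside it (16.0%) had changed. Over all peaks these shares were 4.83% and 6.63%. The split by position was chosen after the values were seen.

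Counted by gene, 2 of 10 members had a changed Up side peak and 3 a changed Down side peak, against 6.65% and 8.42% of the 16879 protein-coding genes with a peak. Genes with more peaks have more chances of a call. The members had a median of 4.5 peaks, against 2 over all genes. All 5 members with 5 or more peaks had a changed one and all 5 with 4 or fewer had none, a split chosen after the values were seen. Among all protein-coding genes a changed peak was found at 39.8% of those with 5 or more peaks and at 6.9% of those with 4 or fewer.

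Partner genes were taken from 6 lists of VEGF and angiopoietin ligands, junction partners, the endoglin pathway, transcription factors and vessel identity. In all, 6 of the 61 list genes with a peak had a changed one Up side and 10 a changed one Down side, against 6.65% and 8.42% of all genes with a peak. Among the VEGF ligands and co-receptors, 3 of 6 genes had a changed peak on the Down side and 2 on the Up side, with NRP2 counted on both. These genes had many peaks, which gives more chances of a call (39.8% of all genes with 5 or more peaks had one). By peak, 11.9% of their 42 had changed, against 6.0% of all peaks, with a median of -0.17. NRP1, a co-receptor of KDR, stood at 1.96 ± 0.46 (SE, adjusted p = 0.00110) by the authors' deposited table, at a peak in its gene body. NRP2, the neuropilin that pairs with FLT4, had 1 changed peak on each side, at 0.93 ± 0.26 in its body and -1.84 ± 0.45 (SE) 9093 bp outside it, by the authors' deposited table. The labelled NRP2 peak stood at -0.15 ± 0.31 (SE, adjusted p = 0.915) by the authors' deposited table and did not pass. VEGFC, the ligand of FLT4, stood at 1.44 ± 0.43 (SE, adjusted p = 0.0216) in its body, and VEGFA, the ligand of KDR and FLT1, at -1.65 ± 0.47 (SE, adjusted p = 0.0143) 19876 bp outside it, by the authors' deposited table. The labelled VEGFA peak stood at -0.10 ± 0.23 (SE, adjusted p = 0.925) by the authors' deposited table and did not pass. The labelled VEGFC peak, opposite in sign to the changed VEGFC peak, stood at -0.75 ± 0.42 (SE, adjusted p = 0.394) by the authors' deposited table and did not pass.

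Of the 6 angiopoietin and TIE partners, 2 had a changed peak, both on the Down side, against 8.42% of all genes with a peak. By peak, 11.8% of their 17 had changed, against 6.0% of all peaks, with a median of 0.14. ANGPT2, an angiopoietin that acts on TEK in a context-dependent way, stood at 1.17 ± 0.31 (SE, adjusted p = 0.00673) by the authors' deposited table, 2.24-fold. That peak carries the symbol ANGPT2 and also lies in MCPH1, the gene in which ANGPT2 is nested. The other labelled ANGPT2 peak stood at 0.42 ± 0.42 (SE, adjusted p = 0.743) by the authors' deposited table and did not pass. A peak near SVEP1, which encodes a matrix protein that binds TIE1, stood at 1.33 ± 0.33 (SE, adjusted p = 0.00345) by the authors' deposited table, 19586 bp from the gene. The labelled SVEP1 peak stood at 0.10 ± 0.24 (SE, adjusted p = 0.926) by the authors' deposited table and did not pass. The changed peak of TEK lay on the same side as the changed ANGPT2 and SVEP1 peaks, and a link between these changes was not tested.

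The junction and membrane partners had 1 changed gene of 17, CTNND1, on the Up side, against 6.65% of all genes with a peak. The median over their 70 peaks was 0.06. CTNND1 encodes p120-catenin, which binds cadherins and is widely expressed. Both its changed peaks lay in the gene body, at -1.23 ± 0.30 and -1.16 ± 0.38 (SE, adjusted p = 0.00274 and 0.0381) by the authors' deposited table. The endoglin pathway had no changed peak among the 23 peaks of its 6 genes, by the authors' DESeq2 adjusted p, against 6.0% of all peaks. It had 2 at an unadjusted p under 0.05, against 16.4% of all peaks, with a median of 0.11.

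The endothelial transcription factors had 4 of 14 genes with a changed peak on the Down side and 1 on the Up side, with a median of -0.06 over 85 peaks. The shares over all genes were 8.42% and 6.65%, and these factors had many peaks per gene, which gives more chances of a call (39.8% of genes with 5 or more peaks had one). By peak, 9.41% of their 85 had changed, against 6.0% of all peaks. ETS1, an ETS factor of endothelium and lymphocytes, had 4 changed peaks, all on the Down side. These 4 of the list's 7 changed Down side peaks lay around 1 gene, so they are not separate members. By the authors' deposited table they ran from 0.83 ± 0.26 in the gene body to 2.40 ± 0.58 (SE) 38164 bp outside it. FLI1, a neighbouring ETS factor gene, had a peak in its body at 1.43 ± 0.38 (SE, adjusted p = 0.00560) by the authors' deposited table. A peak 23064 bp from LMO2, which encodes a bridging protein of blood and endothelial factor complexes, stood at 1.65 ± 0.46 (SE) by the authors' deposited table. Another, 6134 bp from the Notch target HEY1, stood at 1.15 ± 0.34 (SE) by the authors' deposited table. The labelled HEY1 peak stood at -0.15 ± 0.21 (SE, adjusted p = 0.845) by the authors' deposited table and did not pass. The Up side gene was SOX17, at -1.77 ± 0.55 (SE, adjusted p = 0.0281) by the authors' deposited table, in a peak 13955 bp outside its body. The labelled SOX17 peaks stood at -0.23 ± 0.49 and -0.05 ± 0.38 (SE) by the authors' deposited table and did not pass. SOX17 is a factor of arterial endothelium and also of endoderm, and 6 of 7 genes of the endoderm marker list, SOX17 itself among them, had changed peaks on the same side, against 6.65% of all genes. The part of endoderm cells in the SOX17 value was not tested.

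Of the 12 genes of vessel identity with a peak, 2 had a changed Up side peak and 1 a changed Down side peak, against 6.65% and 8.42% of all genes. The median over their 58 peaks was -0.03. NOTCH1, a receptor of arterial fate among many roles, stood at -0.94 ± 0.21 (SE, adjusted p = 0.000672) by the authors' deposited table, 25922 bp from the gene with a mean count of 390.8. NR2F2, a venous factor, stood at -1.67 ± 0.54 (SE, adjusted p = 0.0397) by the authors' deposited table, at a peak 99888 bp away and thus just within the limit. The labelled NR2F2 peak stood at -0.98 ± 0.49 (SE, adjusted p = 0.286) by the authors' deposited table and did not pass. STAB2, a scavenger receptor of sinusoidal and lymphatic endothelium, stood at 1.74 ± 0.47 (SE, adjusted p = 0.00731) by the authors' deposited table, in its gene body.

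**Figure D4:**
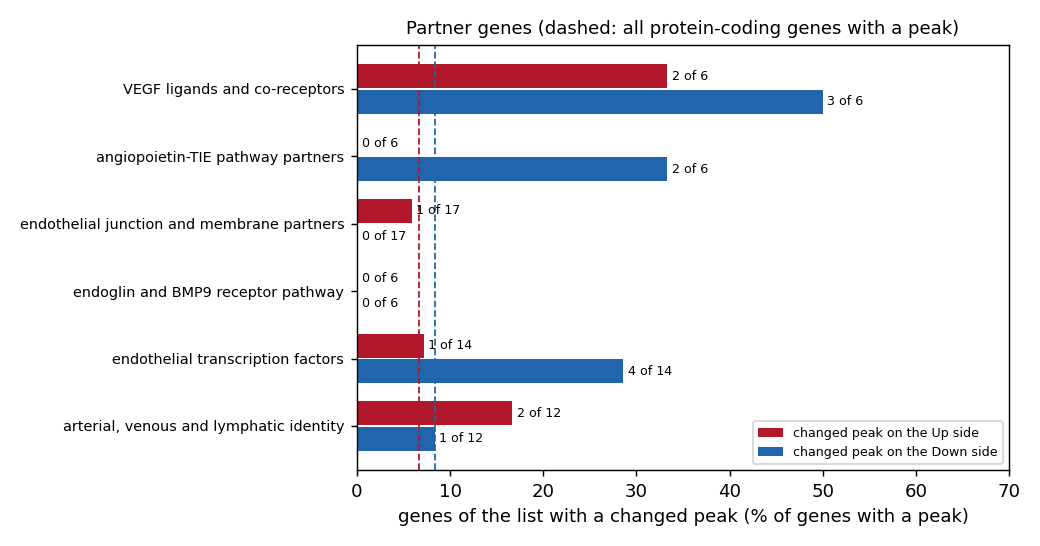
Share of the genes of each partner list that had a changed peak (horizontal axis, percent of list genes with a peak), red for the Up side and blue for the Down side, with the counts beside each bar and dashed lines at the 6.65% and 8.42% of all protein-coding genes. The VEGF list shows both sides, with 2 and 3 of 6 genes and NRP2 counted on both, and the endoglin list shows 0 of 6 on each. Genes with more peaks have more chances of a call, which the shares do not correct for.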

How the data were processed

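ATAC-seq with paired-end reads of 42 bp was done on 50000 to 100000 cells per sample, per the labels' protocols. The tools BWA, MACS2 and DESeq2 were used on build GRCh38 (also written hg38), per the submitters' processing notes, which give no versions. The sources used here do not say whether reads were shifted, duplicates removed or libraries pooled before peak calling, each of which could change a count. The deposited table holds each peak's mean normalized count (a signal averaged over libraries), the authors' log2 fold change with its SE, a Wald score, and the authors' p-value and adjusted p-value. Adjusting the p-values of all 60875 peaks again by Benjamini-Hochberg gave the same values to within 3.4e-06. Shrinkage of fold changes and the base from which starts are counted are not stated.

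Calls rest on the authors' deposited adjusted p; p-values were computed anew, from the deposited values, only for the recentring and minimum mean count alternatives. Distances to RefSeq gene bodies and the motif search were computed with Python 3.11.15 and pandas 2.3.3, and checked on simulated data. The 95% intervals are the fold change plus or minus the normal quantile times the SE. Named peaks were, per gene, each changed peak and those with the smallest p, the highest mean count, the position nearest the start or the gene's symbol, and further peaks to complete a gene, chosen after their values were seen. Partner lists name up to 4 changed genes, plus SOX17, chosen after their values were seen. So were the labelled peaks of VEGFA, VEGFC, NRP2, ANGPT2, SVEP1, HEY1, SOX17 and NR2F2. Members and lists were chosen with earlier results of these data known.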

Additional observations from a re-analysis of the deposited data

How the results depend on the processing

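With no value per library analysed here, depth, replicate scatter and batches could not be examined, and leaving out replicates was not possible. No paired analysis was possible because the deposited comparison has no value per library. Peaks were tied to genes by distance, which does not show that they act on them. At an adjusted p under 0.01, 1 peak (1 gene) remained on each side, those of FLT1 and TEK, and 3 and 6 partner genes on the 2 sides (Up, then Down), fewer by construction. The authors' marking gave 4 Up side peaks at 4 genes and 10 partner genes. With the deposited symbol alone, no Up side peak or gene was left (0 of 4 peaks), partner genes fell to 0 and 1, and the median was 0.72. In gene bodies 0 Up side peaks and genes had changed and 1 Down side peak and gene, with 1 partner gene on the Up side. Within 50 kb 1 Up side peak (1 gene) was counted, since the FLT1 peak lies 50521 bp away. Counting every gene within 100 kb gave 5 Down side peaks and 16 Down side partner genes. With peaks below the median mean count left out, 2 partner genes had changed on the Up side. Of the single peaks, KDR, CDH5 and NOS3 did not pass at under 0.01, KDR did not pass when recentred (1.21), and CD34 passed by the authors' marking. Recentring subtracted a running median of -0.79 to 0.09 along mean count, most negative in the lowest counts. Values of low-count peaks therefore rose, as at the FLT4 peak outside its gene body, from -0.83 to -0.42.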

Other observations

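Within 100 kb of the 10 genes lay 71 further peaks that were nearer to another protein-coding gene, and 3 of them (4.23%) had changed. Named after their values were seen, they lie near FLT1, NOS3 and TIE1. The peak beyond the changed FLT1 peak, 91630 bp from FLT1 and nearer to POMP, a proteasome assembly gene, stood at 1.79 ± 0.39 (SE, adjusted p = 0.000389) by the authors' deposited table. It and the FLT1 peak at -1.82 lay 40628 bp apart and had opposite signs. Near NOS3, a peak nearest to ATG9B, an autophagy gene, stood at 0.86 ± 0.28 (SE, adjusted p = 0.0426) by the authors' deposited table, on the same side as the NOS3 peak. A peak 29573 bp from TIE1 and nearest to TMEM125 stood at -0.94 ± 0.24 (SE, adjusted p = 0.00500) by the authors' deposited table, opposite in sign to the TIE1 peak at 0.86. The 19 such peaks around ENG ran from -0.48 to 0.42 and held no changed peak by the authors' DESeq2 adjusted p, and 0 at an unadjusted p under 0.05.

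Among markers of blood cells, 1 of 8 genes with a peak had changed, RUNX1, a factor of the endothelial to blood transition. Its peak 56891 bp from the gene stood at -1.04 ± 0.31 (SE, adjusted p = 0.0177) by the authors' deposited table, on the Up side. Among smooth muscle and fibroblast markers 2 of 9 genes had a changed peak, COL3A1 and THY1, on the Down side. Over all genes 6.65% had a changed Up side peak and 8.42% a changed Down side peak. The marker lists with the highest shares were endoderm, with 30.0% of its 40 peaks changed and a median of -0.79, and cardiac, with 10.8% of its 65 peaks changed. The share over all peaks was 6.0%. The 12 changed endoderm peaks belonged to 6 genes, and many of them lay around FOXA2 alone, so they are not separate members. Cardiac genes with a changed peak on the Up side were GATA4, MYH7, MYL7, NKX2-5 and TTN, and on the Down side TBX5 and TTN. The median log2 fold change was 0.25 over the 39 smooth muscle and fibroblast peaks and -0.19 over the 25 of the blood list.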
